A study of Arabidopsis thaliana with 10 samples.

Results

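The genes described here are the mitochondrion-encoded genes of Arabidopsis thaliana. They were taken as every identifier of the deposited expression table that begins with ATMG, the prefix of the mitochondrial genome, which gave 146 of the 33559 genes in the table. No measured value entered that choice. Of the 146, 36 encode a protein of known function, 84 are described as uncharacterized mitochondrial proteins and 26 carry no description. Levels are RPKM, a read count divided by the length of the gene and by the sequencing depth, as the authors deposited them.

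Plant mitochondria keep a small genome that encodes some subunits of respiratory complexes I, III and IV and of ATP synthase, part of the cytochrome c maturation machinery, a set of ribosomal proteins, ribosomal and transfer RNAs, and many open reading frames without known function. The remaining subunits of the same complexes are encoded in the nucleus and imported. Mitochondrial transcripts are spliced, trimmed and edited by nuclear-encoded factors, and in plant mitochondria a poly(A) tail is known mainly as a mark that sends an RNA to degradation. The libraries were made from polyadenylated RNA. The values therefore describe the tailed fraction of mitochondrial RNA, and a larger amount of an RNA and a larger tailed share of it cannot be told apart.

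All samples were seedlings that had spent 3 days in darkness at 22 °C after a light pulse for germination, harvested without their roots and without further treatment. Col-0 is the wild type and the background of the mutants. The hls1 mutant is affected in HOOKLESS1, which is needed for the apical hook of dark-grown seedlings. The pifq mutant is affected in PIF1, PIF3, PIF4 and PIF5, transcription factors that maintain dark growth. The ein3 eil1 mutant lacks the ethylene-response transcription factors EIN3 and EIL1, and the combined mutant, pifq ein3 eil1, carries the mutations of pifq and ein3 eil1 together. The labels give no allele names. With 2 biological replicates for each of the 5 genotypes there were 10 samples, but the table holds 1 value per gene and genotype, taken as the authors' mean. No replicate spread can be computed, so no difference below has a test or an error. The term called higher or lower stands for a difference of 1 or more in log2(RPKM + 1), which is a factor of 2 in RPKM + 1 and understates the change of genes at low levels. In bulk seedlings, fewer cells of a type and less RNA per cell cannot be told apart.

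The labels were checked on the mutated genes and on marker genes. EIN3 was at 84.0 RPKM in the wild type, against 17.9 for ein3 eil1 and 13.3 for the combined mutant. PIF3 was at 35.1 RPKM in the wild type, against 5.61 for pifq and 2.35 for the combined mutant, and was also called lower in ein3 eil1, at 12.7. PIF1 was not called lower in pifq, at 18.2 RPKM against 19.0 in Col-0. PIF4 had 8.69 RPKM for pifq and 11.6 for the combined mutant, where it was called higher, against 4.36 for Col-0. In hls1 it was called higher too, at 9.81 RPKM. HLS1 stood at 6.28 RPKM in hls1 against 11.2 in Col-0 and was not called lower there. It was called lower in ein3 eil1, at 2.84 RPKM, and in the combined mutant, at 3.04, so its level does not set the hls1 column apart. PORA, an enzyme of chlorophyll synthesis that is abundant in dark-grown shoots, was at 2089 RPKM in Col-0 and at 44.5 in hls1. It was also called lower in pifq, at 403 RPKM, and in the combined mutant, at 213, but not in ein3 eil1, at 1411. The 9 root markers, of tissue that was to be removed, were all above 0 in every genotype. Their summed level was 182 RPKM in Col-0, 203 for hls1, 33.8 for pifq, 212 for ein3 eil1 and 57.0 for the combined mutant.

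Mitochondrion-encoded transcripts were a very small part of each column. Their summed RPKM was 795 in Col-0, 778 for hls1, 370 for pifq, 2058 for ein3 eil1 and 810 for the combined mutant. These sums are 0.0922%, 0.0932%, 0.0406%, 0.280% and 0.0967% of the RPKM of all genes, in that order, which is a share of length-scaled levels and not of reads. The ein3 eil1 column thus stood at 2.59 times the level of Col-0 and the pifq column at 0.466 times, while hls1 and pifq ein3 eil1 stood at 0.978 and 1.02 times.

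A pair of members without a description, ATMG00020 and ATMG01390, made up between 54.2% of this sum, in pifq, and 77.8%, in hls1. ATMG00020 was at 293 RPKM in Col-0, 355 for hls1, 112 for pifq, 689 for ein3 eil1 and 299 for the combined mutant. ATMG01390 was at 316, 250, 88.5, 848 and 281 RPKM in the same order. Both were lowest in pifq and highest in ein3 eil1, and the combined mutant lay close to Col-0. RefSeq's mitochondrial genome holds ribosomal RNA genes, but they carry no ATMG identifiers there, so whether this pair is among them is not given in the sources used here. Without the pair, the remaining 144 members summed to 186 RPKM in Col-0, 173 for hls1, 170 for pifq, 521 for ein3 eil1 and 230 for the combined mutant. The higher sum in ein3 eil1 was then 2.80 times Col-0. The lower sum in pifq was 0.914 times Col-0, so most of the pifq difference in the sum lay in those 2 genes. Such a sum nets higher against lower members. Of the 51 members that reached an RPKM of 1 in some genotype, the pair included, 36 lay below Col-0 in pifq and 14 above.

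**Figure D1:**
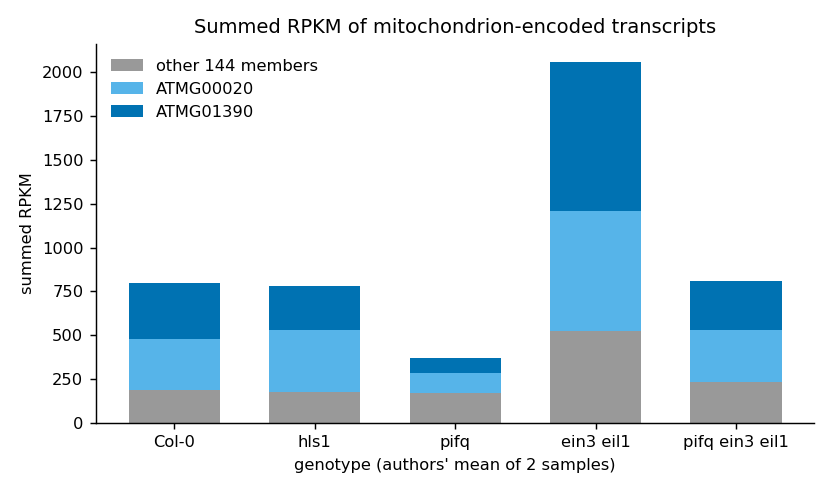
Summed RPKM of the 146 mitochondrion-encoded genes in each genotype (bars, 1 deposited value per gene and genotype, no error available), divided into ATMG00020, ATMG01390 and the other 144 members. The ein3 eil1 bar is the tallest at 2058 RPKM and the pifq bar the shortest at 370, and the other members reach 521 RPKM in ein3 eil1 against 170 to 230 in the other 4 genotypes.

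Most members were barely detected. An RPKM of 1 was reached in at least 1 genotype by 51 of the 146 members, 38 were above 0 but below 1, and 57 were listed at 0 in every genotype. Only 14 reached an RPKM of 10, of which 9 have a known product. No member of known product was listed at 0 throughout, and 31 of the 36 reached an RPKM of 1. Of the 84 uncharacterized members, 17 did so and 34 were listed at 0 in every genotype. Of the 26 without a description, 23 were listed at 0 throughout. The third one above 0 besides ATMG00020 and ATMG01390 was ATMG00060, at 5.71 RPKM in Col-0, 8.01 for hls1, 3.89 for pifq, 16.7 for ein3 eil1 and 7.82 for the combined mutant.

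Among genes of known product, atp9 (ATMG01080), which encodes the membrane-embedded ring subunit of ATP synthase, had the highest level. It was at 26.6 RPKM in Col-0, 29.2 for hls1, 9.56 for pifq, 75.9 for ein3 eil1 and 20.9 for the combined mutant. Next in Col-0 came rps12 (ATMG00980), a protein of the small ribosomal subunit, with 20.6, 15.0, 30.6, 26.6 and 35.2 RPKM in the same order. The complex I subunit gene nad3 (ATMG00990) had 16.5, 11.2, 18.1, 14.8 and 27.8 RPKM. Its highest value was in pifq ein3 eil1 and its lowest in hls1, the same extremes as for rps12. The uncharacterized ATMG01000 ranged more widely, with 15.9 RPKM in Col-0, 3.72 for hls1, 42.7 for pifq, 50.8 for ein3 eil1 and 35.2 for the combined mutant. The uncharacterized ATMG01200, just under 10 RPKM, had 2.12, 0.568, 0.263, 9.06 and 1.89 RPKM in the same order, lowest in pifq and highest in ein3 eil1.

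**Figure D2:**
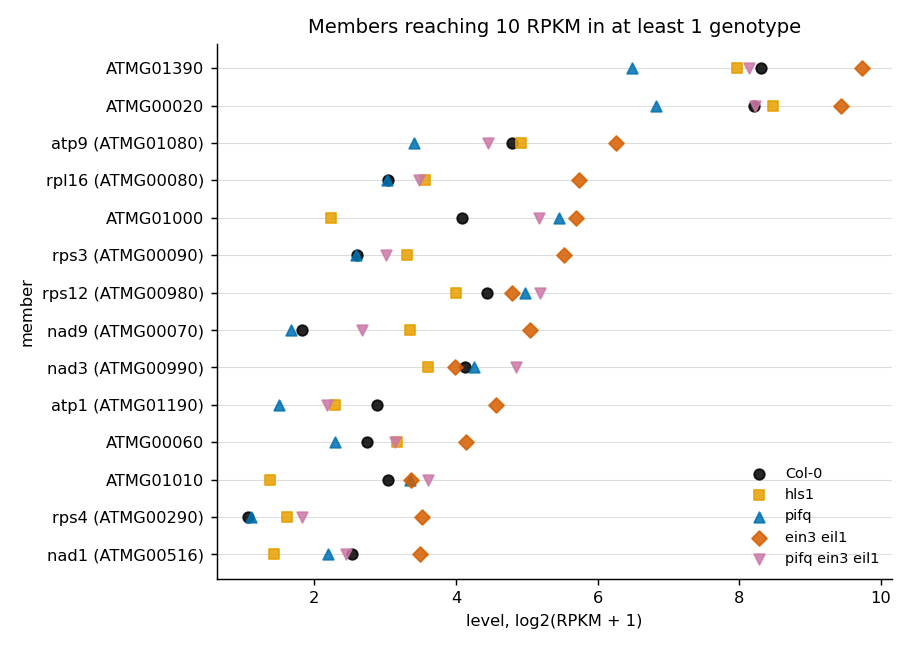
Level of each of the 14 members that reached 10 RPKM, as log2(RPKM + 1) on the horizontal axis, with 1 symbol per genotype (the authors' mean, no error available). Of the 14, 6 reached 10 RPKM in ein3 eil1 alone, so a high ein3 eil1 symbol is part of how they were chosen. The pifq symbol lies left of Col-0 for atp9, atp1, ATMG00020 and ATMG01390 but right of it for ATMG01000.

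The comparison of ein3 eil1 with Col-0 addresses how the loss of the ethylene-response factors bears on transcript levels in the dark. Mitochondrion-encoded transcripts were broadly higher in ein3 eil1: 25 of the 146 members were called higher and 3 lower. A call needs an RPKM of at least 1 in the higher genotype, so the calls fall among the 51 members that reached it, 49.0% of them higher and 5.88% lower. Over the 18581 genes that passed the same filter, 1.63% were called higher and 2.51% lower. Members that passed only through a high ein3 eil1 value had to differ, so the shares of the 51 are a description. Of the 36 members of known product, 16 were called higher and none lower, and 33 lay above 0. Their median log2 difference was 0.94, that of all 146 members, 57 of them at 0 throughout, was 0.00, and that of the 18581 genes was -0.29. The 25 comprised these 16, the 3 members without a description given above and 6 uncharacterized ones. The 3 lower members were all uncharacterized: ATMG00030, at 1.21 RPKM against 3.72, and ATMG00630 and ATMG01140, both listed at 0 in ein3 eil1 and at 3.29 and 1.07 RPKM in Col-0. The deposited values were not scaled to a common median: with the median-of-ratios scaling, which brought the median of all genes to 0.00, 38 members were called higher and 1 lower, and of all genes on that scale 2.39% were called higher and 1.12% lower.

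Of the 5 members with a log2 difference of 2 or more in ein3 eil1, 3 were ribosomal protein genes. All 7 ribosomal protein genes lay above Col-0, 5 of them past the threshold, with a median log2 difference of 1.46. The large-subunit gene rpl16 (ATMG00080) was at 7.21 RPKM in Col-0, 10.8 for hls1, 7.14 for pifq, 52.3 for ein3 eil1 and 10.1 for the combined mutant. The small-subunit gene rps3 (ATMG00090) was at 5.07, 8.94, 5.0, 44.8 and 7.06 RPKM in the same order. In RefSeq's mitochondrial genome rps3, rpl16 and the complex I gene nad9 are consecutive protein genes. The values of nad9 (ATMG00070) were 2.54 RPKM in Col-0, 9.20 for hls1, 2.18 for pifq, 31.9 for ein3 eil1 and 5.37 for the combined mutant. For all 3 of these neighbours ein3 eil1 stood apart from the other 4 genotypes, and their log2 differences from Col-0, 2.92 for rps3, 2.70 for rpl16 and 3.21 for nad9, were the largest among members at 10 RPKM or more. The rps3 and nad9 genes reached 10 RPKM in ein3 eil1 alone. A high ein3 eil1 value is thus part of how they entered this ranking, which is a description. Another small-subunit gene, rps4 (ATMG00290), was at 1.08, 2.07, 1.14, 10.5 and 2.54 RPKM, a log2 difference of 2.47 in ein3 eil1. The large-subunit genes rpl5 and rpl2 were called higher too, with 7.13 against 2.0 RPKM and 4.83 against 1.12. The gene rps7, at 1.0 against 0.471 RPKM, and rps12 did not reach the threshold.

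Complex I, the NADH dehydrogenase at the entry of the respiratory chain, was less uniform. Of its 12 entries, 3 were called higher in ein3 eil1, none lower, and the median was 0.88. Besides nad9, these were nad6 (ATMG00270), at 5.85 RPKM, against 0.826 in Col-0, and the nad5 entry ATMG00513, at 2.93 and 0.690. The nad1 entry ATMG00516 was at 4.77 RPKM in Col-0, 1.69 for hls1, 3.55 for pifq, 10.3 for ein3 eil1 and 4.47 for the combined mutant. Its log2 difference of 0.97 in ein3 eil1 fell just short of the threshold, as did that of nad7, at 0.95. The entries that lay below Col-0 in ein3 eil1 were nad3, at -0.14, the nad2 entry ATMG01320, at -0.62, and the nad1 entry ATMG01275, at -0.34. The mitochondrial nad1, nad2 and nad5 genes are known to be assembled from separate transcripts by trans-splicing, so an entry may cover a piece of such a gene.

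The other respiratory genes lay above Col-0 in ein3 eil1 without exception. Cytochrome b, the only mitochondrion-encoded subunit of complex III (cob, ATMG00220), was at 0.905 RPKM in Col-0, 2.39 for hls1, 0.720 for pifq, 8.25 for ein3 eil1 and 1.5 for the combined mutant. Of the 3 core subunits of cytochrome oxidase, complex IV, cox1 and cox3 were called higher and cox2 was not. Their ein3 eil1 levels were 8.58, 5.07 and 8.55 RPKM, against 3.06, 1.53 and 4.54 in Col-0. Of the 6 ATP synthase genes, atp9, atp1, atp4 and atp8 were called higher. The values of atp1 (ATMG01190), the alpha subunit of the catalytic head, were 6.38 RPKM in Col-0, 3.89 for hls1, 1.83 for pifq, 22.6 for ein3 eil1 and 3.52 for the combined mutant. The entries atp6-1 and atp6-2 lay just below the threshold, with log2 differences of 0.89 and 0.93. Across all 22 respiratory and ATP synthase entries, 10 were called higher and none lower.

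Of the 5 cytochrome c maturation genes, whose products attach heme to cytochrome c, only ccmFn2 was called higher in ein3 eil1. It was listed at 0 in Col-0 and stood at 0.565 RPKM for hls1, 0.770 for pifq, 2.13 for ein3 eil1 and 1.2 for the combined mutant. The maturase gene matR, whose product takes part in intron splicing, was at 1.90 RPKM in ein3 eil1, against 0.529, a log2 difference of 0.92. The protein translocase gene mttB stayed below 1 RPKM in every genotype, as did ccmB, ccmC, nad4L and the nad1 entry ATMG01275.

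**Figure D3:**
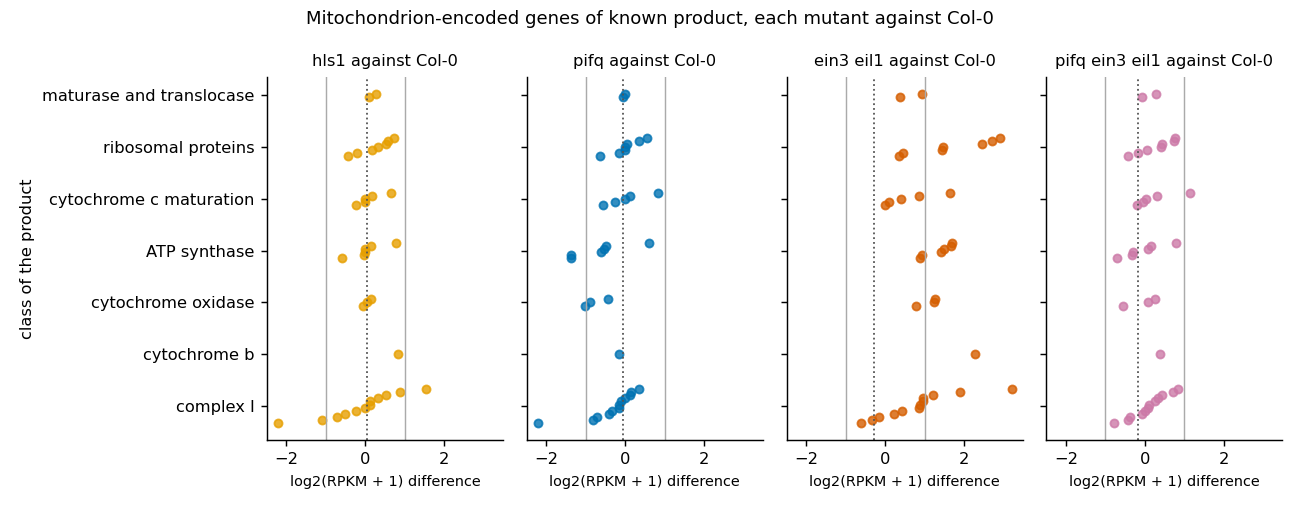
Log2(RPKM + 1) difference of each of the 36 members of known product (points) in each mutant against Col-0, by the class of the product. Grey lines mark the threshold of 1 in either direction and the dotted line the median of all 18581 genes, and in ein3 eil1 all but 3 complex I points lie above 0, with rps3, rpl16, nad9, rps4 and cob beyond 2.

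Plastid-encoded transcripts were also higher in this comparison. Plastid-encoded genes summed to 23505 RPKM in Col-0, 19913 for hls1, 23810 for pifq, 51886 for ein3 eil1 and 27143 for the combined mutant, and 61 of the 133 were called higher in ein3 eil1 and 1 lower. The 4 nuclear ribosomal RNA entries together held 4.27% of all RPKM in Col-0 and 4.43% in ein3 eil1, but were divided differently: AT3G41768 had 12733 RPKM in Col-0 and is listed at 0 in ein3 eil1, while AT2G01010 had 5509 and 19600.25. Their part in the mitochondrial values was not tested. Root markers summed to 212 RPKM in ein3 eil1 against 182, with 3 of the 9 called higher, and their part was not tested either.

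A large, nearly identical copy of the mitochondrial genome lies in chromosome 2 of Arabidopsis, so that reads of many members can also match nuclear identifiers. In RefSeq's genome, assembly TAIR10.1, 23 of the 33 mitochondrial protein genes matched chromosome 2 at 99% identity or more over 90% of their length or more. How the authors assigned reads with several matches is not given in the sources used here. Of the 33, the 4 genes ccmB, nad9, cox1 and atp4 had no match, and the best single alignment of rps3 covered 5.10% of the gene. Of these 5, nad9, rps3, cox1 and atp4 were called higher in ein3 eil1. Besides rps3, the best alignments that covered least were those of cox2, over 14.4% of the gene, of nad4L, over 20.5%, and of rpl16, over 40.6%. Of these, rpl16 was called higher and cox2 and nad4L were not. Further alignments of a gene were not added, so its total matched share may be larger.

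For 48 members a chromosome 2 gene could be paired with 1 member only, and the deposited values of both were added. RPKM is per length and the annotated lengths of a pair differ, so the sum is approximate. In ein3 eil1 against Col-0, 10 of the 48 members were called higher, 12 of their copies and 12 of the sums, with 1 lower in each case. The pairs did not divide alike in every genotype. The chromosome 2 copy of atp9, AT2G07671, was at 44.6 RPKM in Col-0, 47.4 for hls1, 22.1 for pifq, 15.9 for ein3 eil1 and 36.9 for the combined mutant. In ein3 eil1 the member was thus high and the copy low. Their sum was 71.1, 76.6, 31.7, 91.8 and 57.7 RPKM in the same order, and its log2 difference in ein3 eil1 was 0.36, below the threshold that atp9 alone passed at 1.48. For atp1 the copy AT2G07698 was also high in ein3 eil1, and the sum was 9.94 RPKM in Col-0, 11.2 for hls1, 5.13 for pifq, 40.3 for ein3 eil1 and 9.90 for the combined mutant. The sums of cob and cox3 with their copies were called higher in ein3 eil1 as well, with log2 differences of 2.26 and 1.44.

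The nad3 and rps12 genes are consecutive in RefSeq's mitochondrial genome. Together with the uncharacterized ATMG01010 they had the 3 lowest log2 differences in ein3 eil1 among members at 10 RPKM or more. Without their copies, none of the 3 reached the threshold, and the nad1 entry ATMG00516, given above, fell short as well. The nad3 copy AT2G07751 was at 32.2 RPKM in Col-0, 86.5 for hls1, 39.5 for pifq, 73.5 for ein3 eil1 and 56.4 for the combined mutant. The rps12 copy AT2G07675 was at 22.4, 72.2, 31.2, 58.4 and 52.5 RPKM. Both copies were thus highest in hls1, where both members were lowest. With member and copy added, nad3 came to 48.7 RPKM in Col-0, 97.7 for hls1, 57.6 for pifq, 88.4 for ein3 eil1 and 84.2 for the combined mutant. Added in the same way, rps12 came to 43.0, 87.2, 61.7, 85 and 87.7 RPKM. The deposited values alone do not show how the reads of such a pair were divided.

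**Figure D4:**
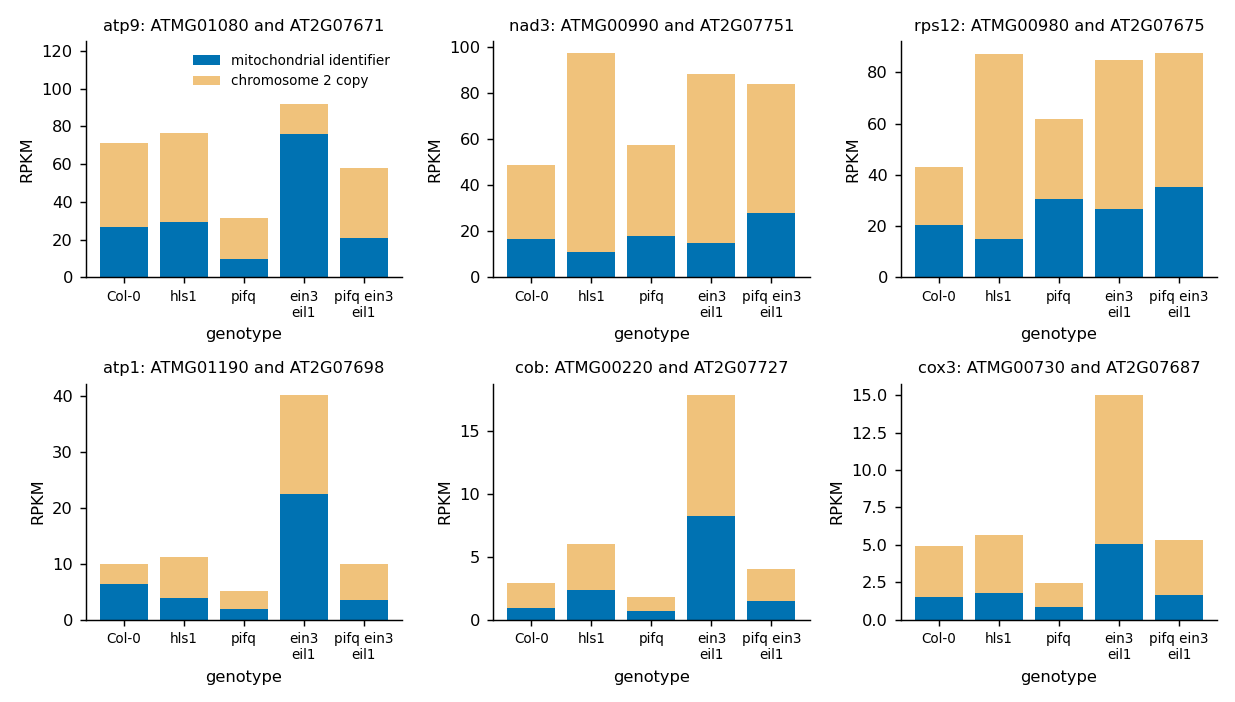
RPKM of 6 members (lower part of each bar) and of their nearly identical chromosome 2 copies (upper part), stacked, by genotype, with no error available. For atp1, cob and cox3 the ein3 eil1 bar is the tallest in both parts, for atp9 only the lower part is taller than in Col-0 while the copy is at 15.9 RPKM, and for nad3 and rps12 the copy holds the larger part in every genotype.

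In pifq, which lacks factors that maintain the dark-grown state, mitochondrion-encoded transcripts tended to be lower than in Col-0. Of the 146 members, 12 were called lower and 2 higher, which is 23.5% and 3.92% of the 51 that reached an RPKM of 1. On the same filter, 6.22% of all genes were called lower and 3.39% higher. Of the 36 members of known product, 24 lay below 0 and 11 above, with a median log2 difference of -0.16, against -0.05 over all genes. The lower members of known product were atp9, at -1.38, atp1, at -1.39, cox1, at -1.02, and the nad1 entry ATMG01120, which was listed at 0 in pifq and hls1 and stood at 3.66 RPKM in Col-0. ATMG00020 and ATMG01390 were lower by log2 differences of -1.38 and -1.82, and 6 uncharacterized members were called lower. The sum of atp9 and its copy was called lower too, at -1.14, whereas that of atp1 was not, at -0.84. The rps3, rpl16 and nad9 genes, by contrast, had log2 differences between -0.16 and -0.01 in pifq. By class, summed RPKM was 0.422 times Col-0 for ATP synthase genes and 0.421 times for cytochrome oxidase genes. It lay between 0.796 and 0.934 times for cytochrome b, complex I, and maturase and translocase genes. For cytochrome c maturation genes it was 1.02 times, for uncharacterized members 1.18 times and for ribosomal protein genes 1.25 times. In each of these classes a single gene rose by more than the whole sum. These were ccmFn2, from 0 to 0.770 RPKM, ATMG01000, from 15.9 to 42.7, and rps12, from 20.6 to 30.6. By gene, 26 uncharacterized members lay below 0 and 11 above, with 6 called lower and 2 higher. Of the ribosomal protein genes 4 lay below and 3 above, and of the maturation genes 2 below and 3 above. The higher members were ATMG01000, at 1.37, and ATMG00500, another uncharacterized one, at 1.83 RPKM against 0.250. Root markers summed to 33.8 RPKM in pifq against 182 in Col-0, and nuclear ribosomal RNA to 1.28% of all RPKM against 4.27%. Their part in the lower mitochondrial values was not tested.

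In hls1, the calls among mitochondrion-encoded transcripts were mostly lower, though the summed level and the median lay close to Col-0. Of the 146 members, 1 was called higher and 6 lower, which is 1.96% and 11.8% of the 51 that reached an RPKM of 1. Over all genes on the same filter, 3.4% were called higher and 4% lower. The higher one was nad9, with a log2 difference of 1.53. The lower ones included ATMG01000, at -1.84, ATMG01010, at -1.68, and the nad1 entries ATMG00516, at -1.10, and ATMG01120, at -2.22. The remaining ones were the uncharacterized ATMG00170, at 0.139 RPKM against 2.87, and ATMG01140, listed at 0 against 1.07. ATMG01010 was at 7.25 RPKM in Col-0, 1.58 for hls1, 9.17 for pifq, 9.29 for ein3 eil1 and 11.2 for the combined mutant. The median over the 36 members of known product was 0.10, against 0.04 for all genes. For ATMG01010 the chromosome 2 copy AT2G07674 was at 4.17 RPKM in hls1 and 2.32 in Col-0, and the sum of the pair was not called lower, at -0.65. Over the 48 members paired with a chromosome 2 copy, 0 members were called higher and 2 lower in hls1. Of their copies 3 were called higher and 0 lower, and of the sums 2 higher and 1 lower. The part of the low PORA level of hls1, given above, in these values was not tested.

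In the combined mutant pifq ein3 eil1, 3 members were called higher than in Col-0 and 3 lower, each 5.88% of the 51 that reached an RPKM of 1. Of all genes on the same filter, 3.81% were called higher and 6.04% lower. The higher ones were ATMG01000, at 1.10, ccmFn2, at 1.14, and the uncharacterized ATMG01370, at 4.76 RPKM against 1.68, and the lower ones ATMG00030, ATMG00170 and ATMG01140. Against ein3 eil1, 25 members were called lower and 1 higher, 49.0% and 1.96% of the 51, with 3.99% of all genes called lower and 4.04% higher. Members that passed the filter only through a high ein3 eil1 value had to come out lower here, so these shares of the 51 are a description. The higher one was ATMG00630, listed at 0 in ein3 eil1. Of the 36 genes of known product 15 were called lower and 31 lay below 0, with a median of -0.85 against 0.13 over all genes, the lowest being rps3, at -2.51, atp1, at -2.38, nad9, at -2.37, and rpl16, at -2.26. In the same comparison 5 of the 9 root markers were called lower, their sum being 57.0 RPKM against 212, and 54 of the 133 plastid-encoded genes were called lower and none higher. Their part in the mitochondrial values was not tested. Against pifq, 9 members were called higher and 1 lower, 17.6% and 1.96% of the 51, with 1.76% and 1.12% of all genes. There 4 of the 9 root markers were called higher, as were 10 of the plastid-encoded genes, with 2 lower, and their part was not tested. The 9 included ATMG01390, at 1.65, ATMG00020, at 1.41, cox1, at 1.28, and atp9, at 1.05, and the lower one was ATMG00170. The comparisons share columns, Col-0, ein3 eil1 or pifq, so that a chance deviation of 1 of these columns enters several of them.

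The difference of differences is the effect of the pif mutations in the ein3 eil1 background minus that in Col-0. It was at or below -1 for 16 of the 146 members and at or above 1 for 5. Of the 18581 genes that reached an RPKM of 1, these counts were 279 and 622, while the 146 were not filtered. A high ein3 eil1 value lowers this quantity, so for members that reached an RPKM of 1 only there the counts are a description. For the 36 members of known product the median was -0.61 and for all genes 0.18. This quantity takes values from 4 columns, none with a known error, and was not tested.

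No nuclear gene listed for the same complexes was called. A list of 42 nuclear-encoded subunits of complexes I to IV, cytochrome c and ATP synthase, of which 40 reached an RPKM of 1, had no member past the threshold in any of the 6 comparisons. In ein3 eil1 against Col-0 their log2 differences lay between -0.62 and 0.16 with a median of -0.19, while the 22 mitochondrion-encoded entries lay between -0.62 and 3.21 with a median of 0.96. In pifq the 42 lay between -0.39 and 0.43, while the mitochondrion-encoded ones ran from -2.22 to 0.60 with a median of -0.43. Levels differed widely as well: in Col-0 the 40 nuclear subunits ranged from 18.2 to 542 RPKM with a median of 107, and the 22 mitochondrion-encoded entries from 0 to 26.6 with a median of 1.48. These libraries selected for poly(A) tails, so the gap in level is not one of total RNA. The ranges of log2 differences of the 2 groups were not compared at matched levels. For each list, the 2 most abundant genes by their Col-0 level are given as examples. In complex IV, COX6a had 542 RPKM in Col-0, against 507 for ein3 eil1, and COX5c-1 at 337 and 258. For ATP synthase, ATPQ, the d subunit, was at 468 and 357 RPKM and the delta subunit gene AT5G47030 at 462 and 361. In complex I, the subunit gene AT5G11770 was at 161 and 142 RPKM and the subunit gene FRO1 at 156 and 127. In complex II, succinate dehydrogenase, SDH4 was at 136 and 111 RPKM and SDH3-2 at 84.0 and 79.4. Cytochrome c (CYTC-1) was at 299.6 and 239 RPKM and MPPbeta, a core subunit of complex III, at 171 and 149.

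**Figure D5:**
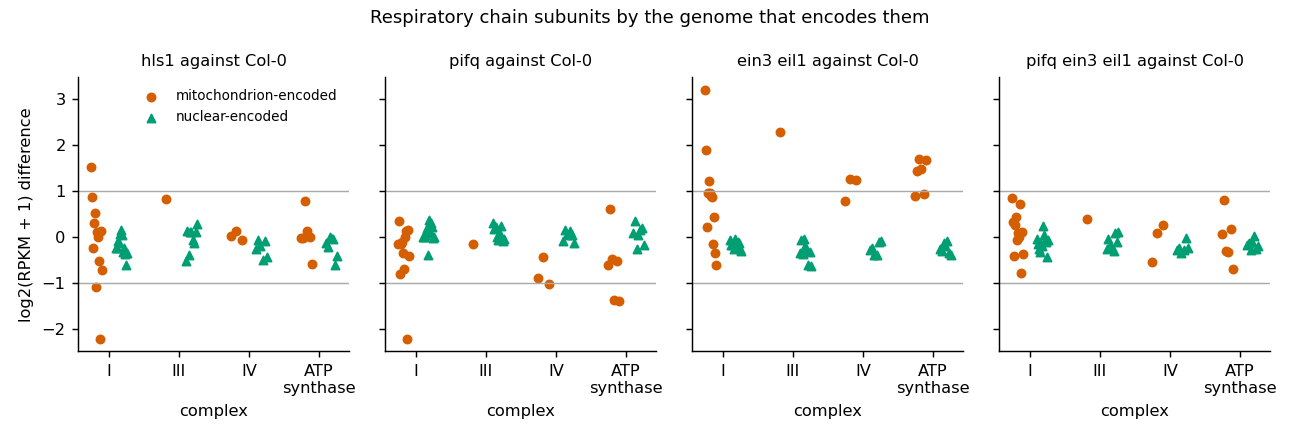
Log2(RPKM + 1) difference from Col-0 for mitochondrion-encoded (circles) and nuclear-encoded (triangles) subunits of complexes I, III (with cytochrome c) and IV and of ATP synthase, each point 1 gene and each panel 1 mutant, with grey lines at the threshold of 1. The nuclear subunits stay within the grey lines in all 4 panels, while 10 mitochondrion-encoded ones lie above the upper line in ein3 eil1.

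A list of 21 nuclear genes for mitochondrial RNA polymerases, splicing, editing and decay factors also had no member past the threshold in any comparison. Its median log2 difference was -0.33 in ein3 eil1, against -0.29 over all genes, and 0.33 in pifq, against -0.05. The most abundant were MORF8, an editing factor, at 59.6 RPKM in Col-0, 60.9 for hls1, 85.4 for pifq, 54.6 for ein3 eil1 and 58.9 for the combined mutant, and RNR1, an exoribonuclease of organelles. RNR1 was at 21.8, 18.5, 25.3, 12.9 and 18.8 RPKM in the same order.

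Genes of alternative respiration, which bypass proton-pumping complexes, were called in some comparisons. The alternative oxidase gene AOX1A, known to be induced when mitochondrial function is disturbed, was at 23.3 RPKM in Col-0, 42.0 for hls1, 8.24 for pifq, 18.6 for ein3 eil1 and 18.1 for the combined mutant. It was called lower in pifq and higher in pifq ein3 eil1 against pifq, but was not called in ein3 eil1. The external NAD(P)H dehydrogenase gene NDB2 was called lower in pifq, at 1.23 against 5.02 RPKM. Its relative NDB4 was called higher in hls1, at 2.03 against 0.199 RPKM, and the other 9 of the 12 listed genes were called in no comparison.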

How the data were processed

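Levels are RPKM, which the authors computed and deposited, per the file headers, as 1 column per genotype. BWA 0.7.7 and TAIR10 are named in the submitters' processing notes. For the counting tool, its strand setting, the treatment of reads with several matches and the depth, the entry is not given in the sources used here, and no interval was computed. Between 51.0% and 51.7% of the values above 0 had more than 6 digits, and 95.3% to 96.0% of these ended in 5, as a mean of 2 rounded numbers does. Each value was taken as such a mean. The planned limma test needs values per sample and could not be run, and an absolute difference of 1 in log2(RPKM + 1) became the rule.

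The deposited descriptions are out of register with the identifiers. On their own lines 12.3% of them shared a word of 4 letters or more with RefSeq's product, and 58.8% did so once put in identifier order and moved by 1 line, and in that order they name the members. RefSeq notes on chromosome 2 genes name 16 of the same members and, alone, the nad2 entry ATMG01320. Members and chromosome 2 copies were paired by RefSeq notes that name the member. BLAST 2.17.0 compared chromosome 2 genes with the mitochondrial genome of TAIR10.1, and that genome's protein genes with chromosome 2. The 48 pairs kept had a copy matching at 99% identity or more over 90% or more of its length. No member was aligned with its copy directly. That assembly's mitochondrial genome carries no ATMG identifiers, so no mitochondrial coordinates or sequences are given.

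Named members were those of known product at 10 RPKM or more, the 6 others with the highest values, the 3 largest differences each way in each mutant among those at 10 RPKM or more, and, of the nuclear lists, up to 4 past the threshold. Further members were named after their values were seen, where a count was 5 or fewer or to complete a class. The members and lists were chosen with earlier results of these data known. The rule was tried on simulated data, with changes placed only in genes at a mean of 10 RPKM or more. Changes of members at lower levels were not covered by that trial. Python 3.11.15 was used.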

Additional observations from a re-analysis of the deposited data

How the results depend on the processing

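Of 180 recomputed values, 137 stayed within 1.5 times the reported count or ratio, or within the same span on the log2 scale for medians, and 43 did not. In the following, counts are members called higher or lower. With a pseudocount of 0.1 in place of 1, hls1 had 6 higher and 11 lower, pifq 20 lower, pifq ein3 eil1 8 higher and 6 lower against Col-0, and 21 higher and 2 lower against pifq. With 0.5, hls1 had 5 higher, and pifq ein3 eil1 had 2 lower against pifq. With an RPKM minimum of 5, pifq had 1 higher, ein3 eil1 had 1 lower, and pifq ein3 eil1 had 1 higher and 1 lower against Col-0, 0 lower against pifq and 0 higher against ein3 eil1. Median-of-ratios scaling gave 38 higher and 1 lower in ein3 eil1, and scaling to an equal nuclear sum gave 38 higher. At a threshold of 2, hls1 had 0 higher and 1 lower, pifq 0 higher and 3 lower, ein3 eil1 5 higher and 1 lower, and pifq ein3 eil1 0 higher and 0 lower against Col-0, 0 and 0 against pifq, and 0 and 6 against ein3 eil1. Without genes listed at 0 in any column, hls1 had 3 lower, pifq 7 lower, ein3 eil1 0 lower, and pifq ein3 eil1 0 lower against Col-0, 0 lower against pifq and 0 higher against ein3 eil1, since such genes were left out. With no filter, the median was 0.00 in ein3 eil1 against Col-0 and likewise in the combined mutant against ein3 eil1, in place of 0.97 and -0.98 over the 51 members that reached an RPKM of 1, since 57 members are at 0 throughout. Without ATMG00020 and ATMG01390, a setting planned as leaving out ribosomal RNA, which the sources do not name for them, the pifq sum was 0.914 times Col-0 and the pifq ein3 eil1 sum 1.36 times pifq. Adding chromosome 2 copies, an alternative chosen after seeing the data, gave 3 higher in hls1, 5 higher in pifq ein3 eil1 against Col-0 and 2 lower against pifq. The cause was not tested except where stated.

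No paired analysis was possible because the table holds no values per sample, and for the same reason leaving out each replicate was not run. Depth is unknown, and no error can be given for members near 1 RPKM.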
